A study of Mus musculus with 15 samples.

Results

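The genes of cytosolic ribosomal proteins were followed in mouse hearts during isoproterenol treatment. They were taken by symbol, as genes named Rpl or Rps with a number, the stalk genes Rplp0, Rplp1 and Rplp2, and their closely named paralogs. Of 55401 genes in the deposited files, 88 matched and 82 had a mean expected count of at least 50 over the 15 libraries. The mean count was at least 144 in the 82 genes and at most 2.14 in the 6 others, which were Rpl10l, Rpl32l, Rpl39l, Rpl6l, Rps12l1 and Rps3a2. Of the 82 genes, 49 belong by name to the large subunit and 33 to the small subunit, and 80 are protein coding in GENCODE M21. The other 2, Rps3a3 and Rps4l, are annotated there as processed pseudogenes, so the name of the set does not hold for them. All 82 passed the filter on low counts.

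Isoproterenol activates β-adrenergic receptors and so makes the heart beat faster and harder. The mice were C57BL6 males of 12 weeks. Treated mice received isoproterenol under the skin, 50 mg/kg each day, and hearts were taken at 4, 8 or 11 days, while control mice received saline. The study gave saline for a similar period, and the labels name no day for the saline libraries. The same saline libraries serve every comparison with saline, so they are not matched to each time. There were 4 saline libraries, 4 libraries at 4 days, 3 at 8 days and 4 at 11 days, each named here by its group and letter. No source used here says that a library pools hearts or that the letters link hearts across groups, and p-values measure the spread between these libraries.

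A ribosome reads messenger RNA and joins amino acids into protein. Its small subunit decodes the message and its large subunit forms the peptide bond. The ribosomal proteins cover a core of ribosomal RNA, and most are made from a single gene copy at about equal molar amounts. Their messengers begin with a run of pyrimidines, the 5′ terminal oligopyrimidine (TOP) motif, through which the mTOR pathway sets their translation. A few proteins have a second gene used in particular tissues. Rpl3l, which replaces Rpl3 in ribosomes of heart and skeletal muscle, is the best known of these in the heart.

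Windows around annotated gene starts are shown for 5 genes, since the TOP motif lies there and Rpl3l and Rps27 carry results given further on. RefSeq windows (build GRCm38.p6) were matched by symbol for 60 of the 82 genes. Each line reads 5′ to 3′ from 25 bases before the start to the 20th base from it, with CTTTCC in capitals.
Rps10, chr17:27635225-27635269, minus strand: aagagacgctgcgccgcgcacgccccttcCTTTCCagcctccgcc
Rpl13a, chr7:45128726-45128770, minus strand: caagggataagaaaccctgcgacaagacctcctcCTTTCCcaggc
Rpl28, chr7:4792940-4792984, plus strand: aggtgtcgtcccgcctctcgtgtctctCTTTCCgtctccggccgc
Rps27, chr3:90213629-90213673, minus strand: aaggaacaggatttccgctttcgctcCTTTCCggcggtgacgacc
Rpl3l, chr17:24727801-24727845, plus strand: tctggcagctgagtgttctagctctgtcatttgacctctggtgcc
The first 4 were picked because they hold the letters CTTTCC, from the 2nd base of Rps27, the 3rd of Rpl28, the 5th of Rps10 and the 10th of Rpl13a. On the strand of the gene, these letters stood between 60 bases before and 30 bases after the start in 19.4% of 72 windows of the ribosomal protein genes, compared with 4.22% of 32851 windows of all genes. On the other strand the shares were 2.78% and 3.95%. A match is a description of the letters, and annotated starts can lie some bases from the true ones.

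Levels per length were compared by FPKM as deposited, in which RSEM scaled counts to effective gene length and sequencing depth. The mean FPKM over the 15 libraries had a median of 95.4 over the 82 genes, with quartiles of 58.5 and 143. Rplp1, a protein of the stalk that recruits translation factors, was highest at a mean of 279 FPKM, followed by Rps2 at 275 and Rpl13a at 253, both integral parts of their subunits. Rpl12 was lowest at 2.39 FPKM, below Rps3a3 at 4.18 and Rps4l at 6.65.

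Ribosomal protein messengers have left many processed copies in the mouse genome, and these also took counts. Pseudogenes were tied to the 82 genes by name or by sequence, at an identity of at least 90% over at least 80% of the shorter transcript. Mean counts summed to 249909 for the 82 genes and to 27547 for the 1145 pseudogenes tied to them. For 6 genes the gene itself held under 50% of the counts: Rpl12, Rpl5, Rpl10, Rpl27, Rpl10a and Rps23. Rpl12 itself had a mean count of 156 and Gm10275, a pseudogene with a transcript 100% identical to it, had 2715. Rpl5 had 400.4 and Gm15500, also 100% identical, had 6186. Rpl10 had 348 and Rpl10-ps3 had 3730.5, a copy tied by name and annotated as protein coding. Reads from identical stretches cannot be assigned to one copy by sequence, so the levels and changes of these genes are uncertain. On the other side, 49 genes held at least 99% of the counts of their family, among them Rpl3, at 99.7%, and Rpl3l, to which no pseudogene was tied. The 49 include Rps3a3 and Rps4l, themselves annotated as pseudogenes. No gene of the set was counted as a pseudogene of another, so the 99.8% of Rps3a1 leaves out its copy Rps3a3.

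**Figure D1:**
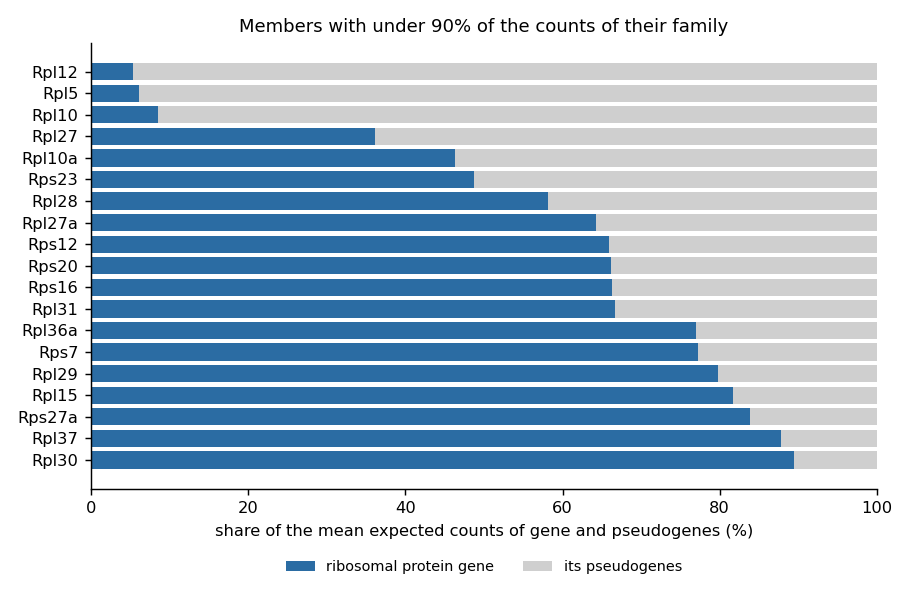
Share of the mean expected counts (15 libraries) that fell on a ribosomal protein gene (dark) and on its pseudogenes (light), in percent, for the 19 genes with a share under 90%. Rpl12 held 5.37% of the counts of its family, Rpl5 6.08% and Rpl10 8.51%.

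Expected counts per library totalled 25404162 to 117777005. The mitochondrial genome, CT010467.1 and Lars2 took 47.6 to 67.1% of them. The last 2 genes alone took 15.8% in 8-day A and at most 0.0916% in the other libraries, so 8-day A stands apart, and results at 8 days are given with and without it. Cardiomyocyte markers were present in every library, with summed levels of 68310 to 82566 CPM (counts per 1000000 after TMM scaling, which adjusts libraries to a common composition) for 10 of 10 genes. Of 6 markers of B and T lymphocytes 2, Cd3e and Cd3g, were at 0 in at least 1 library. The others had counts in every library, and the 6 summed to 0.677 to 1.55 CPM.

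The summed level of the 82 genes was read on several scales. As a share of the counts outside the mitochondrial genome, CT010467.1 and Lars2, it was 0.940, 0.879, 0.885 and 1.03% in saline hearts, 1.02, 0.916, 0.948 and 0.956% at 4 days, 0.853, 0.815 and 0.880% at 8 days, and 0.922, 0.996, 0.988 and 0.944% at 11 days. The 4-day and 11-day libraries lay within the saline range, and 2 of the 3 8-day libraries lay below it. Without 8-day A the 8-day mean was 0.847 ± 0.0455% (SD, n = 2), against 0.934 ± 0.0705% in saline hearts (n = 4). As a share of all counts, the values were 0.535, 0.439, 0.4936 and 0.470% in 4-day hearts, against 0.458, 0.417, 0.403 and 0.429% in saline hearts. On that scale the 4-day mean was 0.484 ± 0.0408% and the saline mean 0.427 ± 0.0234%, and the counts outside this set differed too: the mitochondrial genome, CT010467.1 and Lars2 took 47.6 to 52.1% at 4 days and 51.3 to 58.4% in saline hearts. The direction at 4 days therefore rests on the scale. The log2 ratio of the means was 0.18 over all counts and 0.04 outside those genes, and it was -0.04 for summed CPM after scaling by TMM. At 8 days the share of all counts was 0.281, 0.359 and 0.443%, with 8-day A and 8-day B below every saline library. At 11 days it was 0.451, 0.482, 0.465 and 0.480%, with 11-day B, 11-day C and 11-day D above every saline library.

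**Figure D2:**
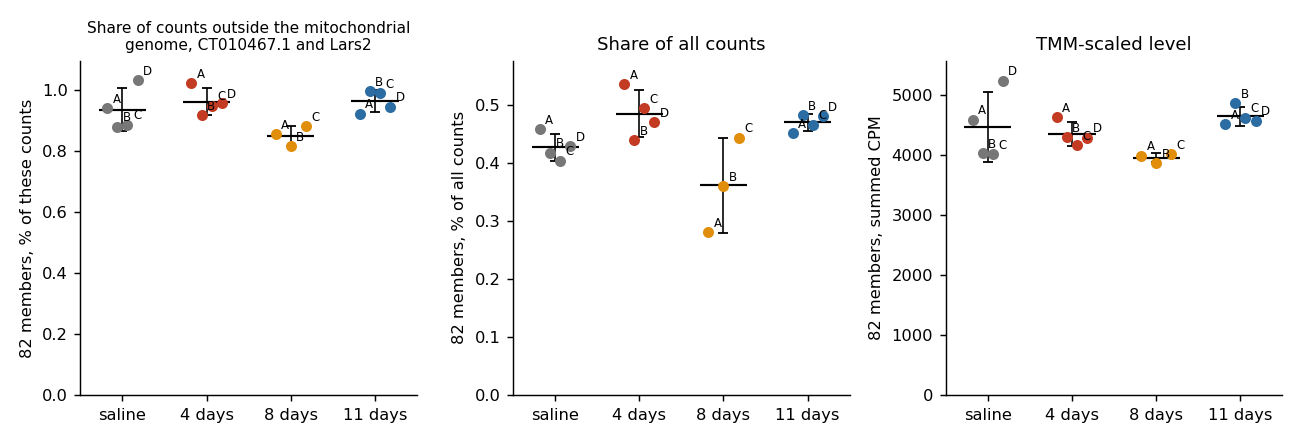
Summed level of the 82 ribosomal protein genes per library (points, with letters) by group, as percent of counts outside the mitochondrial genome, CT010467.1 and Lars2, as percent of all counts, and as summed CPM after TMM scaling; lines are means and bars 1 SD. The 8-day libraries lie at 0.815 to 0.880% on the first scale, and 8-day A drops to 0.281% only on the second.

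Single genes were tested by edgeR's quasi-likelihood test on TMM-scaled counts, with Benjamini-Hochberg adjustment over all 26862 genes tested and a threshold of 0.05. At 4 days against saline, 1 of the 82 genes was higher and 1 was lower, where 6.05% of all genes were higher and 3.4% lower. The median log2 fold change of the 82 was -0.05, with quartiles of -0.15 and 0.02, and that of all genes was 0.01. Scaling by library size alone turned the median of the 82 to 0.16, while that of all genes became 0.21. Both genes that passed are the pair Rpl3 and Rpl3l.

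Rpl3 (chr15:80077791-80091868, minus strand, GRCm38) encodes a large subunit protein whose loop reaches close to the peptidyl transferase centre. It had 84.3, 57.7, 57.9 and 64.7 CPM in 4-day hearts, against 41.4, 42.4, 42.0 and 42.1 CPM in saline hearts. Every 4-day library lay above every saline library, and 4-day A was the highest. The log2 fold change was 0.66 ± 0.11 (SE), with an adjusted p of 0.00262. Rpl3 passed under all alternatives and without any one library, at log2 fold changes of 0.51 to 0.87. Syngr1 lies across from Rpl3 on the other strand, shares 0 exon bases with it and had a log2 fold change of 0.02 ± 0.08.

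Rpl3l (chr17:24727820-24736143, plus strand) encodes the striated muscle form. It had 31.7, 49.3, 38.5 and 38.5 CPM in 4-day hearts, against 55.4, 50.3, 58.4 and 61.5 CPM in saline hearts. The groups did not overlap, though 4-day B came within about 1 CPM of saline B. The log2 fold change was -0.51 ± 0.12, with an adjusted p of 0.0154. It passed without any one library, with a highest adjusted p of 0.0489. With scaling by library size alone it was -0.31 with an adjusted p of 0.103, so the call rests on the scaling.

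Both genes were also followed at the later times. Rpl3 had 47.8, 37.2 and 49.3 CPM at 8 days and 38.0, 41.0, 48.5 and 36.8 CPM at 11 days, and Rpl3l had 41.4, 57.5 and 42.1 CPM at 8 days and 54.3, 56.7, 54.0 and 63.5 CPM at 11 days. In 8-day A and 8-day C, Rpl3l lay below every saline library. Against saline, Rpl3 changed by 0.09 ± 0.11 at 8 days and by -0.04 ± 0.09 at 11 days, and Rpl3l by -0.27 ± 0.12 and 0.01 ± 0.08, none past the threshold. Without 8-day A the 8-day values were 0.02 for Rpl3 and -0.20 for Rpl3l. Set directly against 4 days, 11-day hearts had lower Rpl3 (log2 fold change -0.70 ± 0.12, adjusted p = 0.00273) and higher Rpl3l (0.53 ± 0.11, adjusted p = 0.00832). Both calls held under all alternatives and without any one library.

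The pair can be read within a library, where scaling cancels. Per length the 2 genes stood at like levels, with mean FPKM of 33.7 for Rpl3 and 45.5 for Rpl3l in saline hearts. The ratio of Rpl3 to Rpl3l in FPKM was 2.62, 1.15, 1.47 and 1.66 in 4-day hearts, against 0.738, 0.8286, 0.716 and 0.676 in saline hearts. All 4 saline hearts held more Rpl3l than Rpl3, and all 4 4-day hearts held more Rpl3. At 8 days the ratio was 1.14, 0.633 and 1.14, and at 11 days it was 0.682, 0.704, 0.878 and 0.570. This ratio was taken up after the values of both genes were seen, and it is given with no test. The most similar transcripts of the 2 genes are 74.4% identical over 1189 aligned bases, far from the near identity of the pseudogenes.

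**Figure D3:**
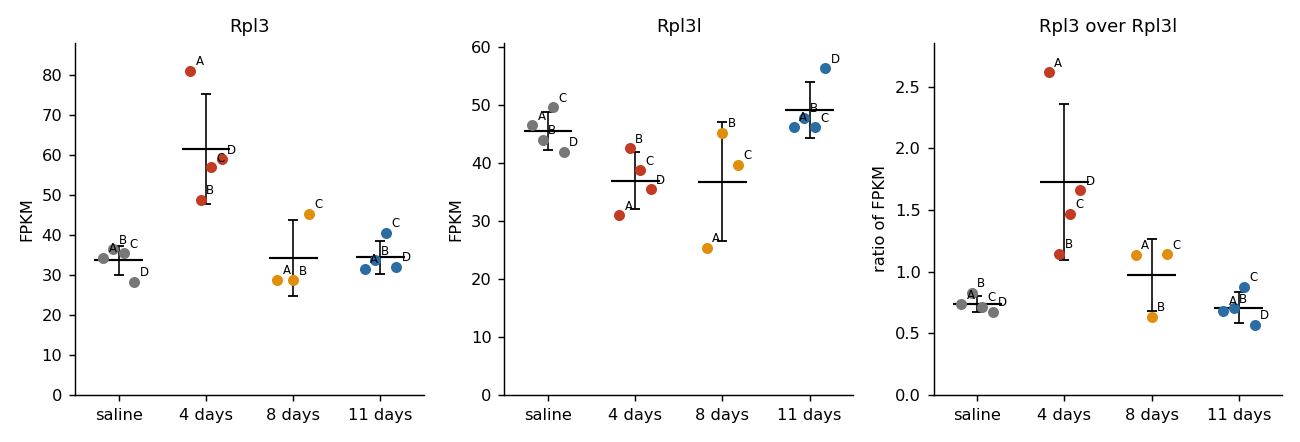
FPKM of Rpl3, of Rpl3l and their ratio in each library (points, with letters) by group; lines are means and bars 1 SD. The ratio lies between 1.15 and 2.62 in 4-day hearts and between 0.676 and 0.8286 in saline hearts, with the 8-day libraries on both sides of 1.

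Markers of some other cells moved in the same hearts. At 4 days against saline, 8 of 8 fibroblast markers, 7 of 7 macrophage markers and 5 of 5 markers of dividing cells were higher, and 0 of 10 cardiomyocyte markers were higher and 4 lower. At an unadjusted p under 0.05, and by DESeq2 and limma voom, 1 of the 10 cardiomyocyte markers was higher. Of all 26862 genes, 3484 were higher and 2475 lower at an unadjusted p under 0.05. With scaling by library size alone 1 of the 10 was higher and 1 lower, and their median was 0.02 rather than -0.18. Of all genes, 2533 were higher and 293 lower with that scaling. The count of lower cardiomyocyte markers therefore rests on the scaling. Summed fibroblast markers reached 759 to 2544 CPM in 4-day hearts, against 312 to 385 CPM in saline hearts, and summed macrophage markers 196 to 335 CPM, against 96.3 to 158 CPM. Summed markers of dividing cells reached 24.8 to 79.4 CPM in 4-day hearts, against 6.33 to 13.4 CPM in saline hearts, with Ccnb1 at 0 in at least 1 library of the series. Of 5 blood markers 2, Alas2 and Hbb-bs, were lower and 0 higher, with 5 lower and 0 higher at an unadjusted p under 0.05 and 0 higher by DESeq2 and limma voom. With scaling by library size alone 0 blood markers were lower and 0 higher. Summed blood markers were 38.6 to 208 CPM in 4-day hearts, against 106 to 575 CPM in saline hearts, and their median log2 fold change was -1.61. By edgeR 0 of 6 endothelial, 0 of 5 smooth muscle and pericyte and 0 of 6 lymphocyte markers were called. Their medians were -0.03, 0.29 and -0.78. DESeq2 and limma voom each called 1 smooth muscle and pericyte marker higher. Among 4-day hearts, 4-day A, with the highest Rpl3 and the lowest Rpl3l, had the highest fibroblast and dividing cell sums. Of these hearts 4-day B, with the lowest ratio, had the lowest of both. In the other groups too, the library with the highest fibroblast sum had the highest ratio. These were saline B (385 CPM, 0.8286), 8-day C (836 CPM, 1.14) and 11-day C. The lowest sum and ratio also met in 8-day B (459 CPM, 0.633). In saline and in 11-day hearts they fell in different libraries. Between libraries of different groups the order did not hold throughout. Fibroblast markers summed to 793 CPM in 11-day C, at a ratio of 0.878, and to 759 CPM in 4-day B, at 1.15. In 8-day A they summed to 511 CPM, at a ratio of 1.14. Summed cardiomyocyte markers were 68310 to 77761 CPM in 4-day hearts, against 71687 to 80075 CPM in saline hearts. The part of these cells in the change of Rpl3 and Rpl3l was not tested. In bulk tissue, fewer cells of a type and less RNA per cell cannot be told apart.

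The other paralog pairs did not pass in any of the 3 comparisons with saline. They were Rpl7 and Rpl7l1, Rpl22 and Rpl22l1, Rps4x and Rps4l, and Rps27 and Rps27l, besides Rpl10 and Rpl39, whose partners were not among the 82 genes. Per length the first of each pair led, with mean FPKM in saline hearts of 121 for Rpl7 and 12.3 for Rpl7l1, of 82.03 for Rpl22 and 16.7 for Rpl22l1, of 112 for Rps4x and 6.96 for Rps4l, and of 200.2 for Rps27 and 24.7 for Rps27l. Rpl22l1, the partner of the RNA-binding protein Rpl22, had 3.8, 5.0 and 4.5 CPM at 8 days, against 6.5, 5.3, 6.8 and 8.7 CPM in saline hearts. Its log2 fold change of -0.63 ± 0.16 had the lowest value of the 82 genes at 8 days (adjusted p = 0.0656). Without 8-day A it was -0.55. It shrank to -0.07 once effective lengths, which depend on the mix of transcripts, entered as offsets. The stalk genes stayed close to saline, with log2 fold changes at 4, 8 and 11 days of -0.01, -0.07 and 0.07 for Rplp0, 0.13, -0.23 and 0.07 for Rplp1, and -0.02, -0.16 and 0.01 for Rplp2, all with SE of at most 0.16 and none past the threshold. Without 8-day A the 8-day values were -0.08 for Rplp0, -0.08 for Rplp1 and -0.06 for Rplp2.

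**Figure D4:**
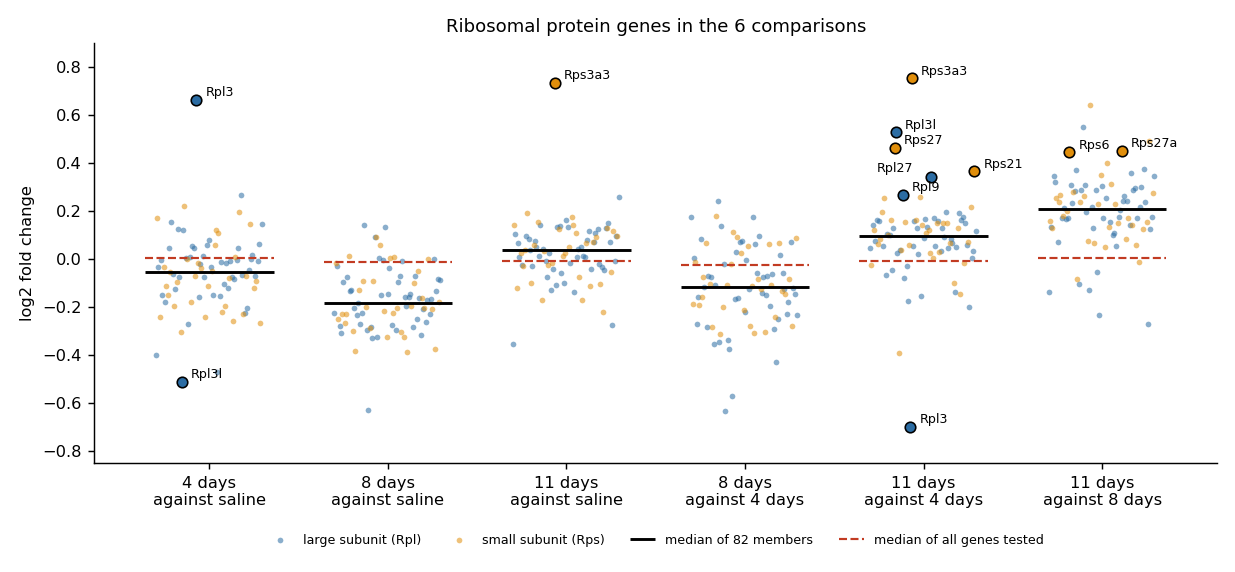
Log2 fold changes of the 82 ribosomal protein genes (points, large subunit blue and small subunit orange) in the 6 comparisons; large outlined points passed edgeR's test, solid lines are medians of the 82 genes and dashed lines medians of all genes tested. At 4 days Rpl3 lies apart above the rest, and Rpl3l is lowest with Rpl27, at -0.47, close to it. At 8 days the median of the 82 falls at -0.18 beside -0.01 for all genes.

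At 8 days against saline, 0 of the 82 genes were higher and 0 lower by edgeR, where 1.07% of all genes were higher and 1.2% lower. At an unadjusted p under 0.05, 0 were higher and 18 lower, where 6.52% of all genes were higher and 6.49% lower. The 82 genes of a library share its scaling, so such counts are not independent, here and between treatment times. The median log2 level of the 82 genes in a library had an SD within a group of up to 0.16. DESeq2 called 0 higher and 3 lower, limma voom 0 higher and 2 lower. Counts by these tools, here and elsewhere, stand without the share of all genes that they called. The log2 fold change was negative for 72 of 82 genes, with a median of -0.18, against -0.01 for all genes. Both subunits had like medians, -0.16 for the large and -0.20 for the small. Without 8-day A the median was -0.23, with 0 genes higher and 28 lower at an unadjusted p under 0.05, where 5.55% of all genes were higher and 6.48% lower. Without saline D, the saline library with the highest summed level, it was -0.11, and without saline B 3 genes passed as lower. Rps27a and Rps6 were lowest after Rpl22l1, at -0.39 ± 0.10 (adjusted p = 0.0557) and -0.38 ± 0.11 (adjusted p = 0.101), and without 8-day A at -0.41 and -0.45.

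Saline B also weighed on the 4-day comparison. Without it 10 genes rather than 1 were called lower, Rpl27, Rps27, Rpl9 and Rps21 among them, and without 4-day B 3 were. Calls over all 26862 genes moved with saline B too, to 1206 lower and 1767 higher without it, against 914 lower and 1626 higher with it. With all libraries the log2 fold changes of these 4 genes at 4 days against saline were -0.47 ± 0.14 for Rpl27 (adjusted p = 0.0506), -0.31 ± 0.11 for Rps27, -0.27 ± 0.10 for Rpl9 and -0.26 ± 0.13 for Rps21.

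At 11 days against saline, 1 of the 82 genes was higher and 0 lower by edgeR, where 1.8% of all genes were higher and 1.95% lower. At an unadjusted p under 0.05, 3 were higher and 2 lower, where 8.25% of all genes were higher and 8.93% lower, and DESeq2 and limma voom called 0 lower. The median was 0.04, against -0.01 for all genes, with 0.12 without saline D and -0.01 without saline B. Without saline D 2 genes were called higher. The gene that passed was Rps3a3 (chr13:108670603-108671397, plus strand), a processed pseudogene inside Pde4d that shares 0 exon bases with it. It had 3.7, 3.1, 4.7 and 3.0 CPM in 11-day hearts, against 2.4, 2.5, 1.7 and 2.2 CPM in saline hearts. The log2 fold change was 0.73 ± 0.17, with an adjusted p of 0.0301. The call was lost without saline C (0.60), 11-day A (0.72) or 11-day C (0.59), and with limma voom. Its transcript is 98.9% identical to that of Rps3a1 over 795 bases, and Rps3a1, a small subunit protein gene, had 153 to 165 CPM in 11-day hearts, against 112 to 180 CPM in saline hearts. A read of the parent that lands on the copy would count for Rps3a3, so its level is uncertain.

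Times were also compared directly. At 8 days against 4 days, 0 of the 82 genes were higher and 0 lower by edgeR, where 0.0596% of all genes were higher and 0.19% lower. At an unadjusted p under 0.05, 0 were higher and 22 lower, where 4.01% of all genes were higher and 7.53% lower. DESeq2 called 0 higher and 2 lower and limma voom 0 in either direction. Their median was -0.11, against -0.02 for all genes, and -0.16 without 8-day A. Without 4-day B 3 genes were called lower, and without 4-day C 1 was.

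At 11 days against 4 days, 6 of the 82 genes were higher and 1, Rpl3, was lower, where 3.75% of all genes were higher and 6.55% lower. The median of the 82 was 0.10 with TMM and -0.04 with scaling by library size alone, which also moved the median of all genes to -0.15, so the direction of the whole set rests on the scaling. Besides Rpl3l and Rps3a3, the higher genes were Rps27, Rps21, Rpl27 and Rpl9, proteins of both subunits. Rps27, a zinc-binding protein of the small subunit, had 39.1, 44.6, 45.2 and 38.8 CPM in 11-day hearts, against 30.5, 32.4, 29.3 and 28.8 CPM in 4-day hearts. The groups did not overlap, and the log2 fold change was 0.46 ± 0.07, with an adjusted p of 0.00164. Its call held under all alternatives and without any one library. Without 4-day B, or without 11-day B, 2 genes rather than 1 were called lower. Rps3a3 was higher by 0.75 ± 0.15 (adjusted p = 0.00663), and Pde4d, the gene it lies in, by 0.26 ± 0.07 (adjusted p = 0.0255).

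Markers of some cell types moved in this comparison as well. By edgeR 0 of 6 endothelial, 0 of 5 blood and 0 of 6 lymphocyte markers were called, and 1 of 5 smooth muscle and pericyte markers, Acta2, was lower. Lower at 11 days were 7 of 7 macrophage, 5 of 8 fibroblast and 5 of 5 dividing cell markers, with 0 of each higher by any of the 3 tools or at an unadjusted p under 0.05, while 5 of 10 cardiomyocyte markers were higher and 1 lower. Summed macrophage markers were 149 to 182 CPM in 11-day hearts, against 196 to 335 CPM in 4-day hearts, and summed fibroblast markers 423 to 793 CPM, against 759 to 2544 CPM. Summed markers of dividing cells were 1.93 to 4.12 CPM in 11-day hearts, against 24.8 to 79.4 CPM in 4-day hearts. Summed cardiomyocyte markers were 75886 to 82566 CPM in 11-day hearts, against 68310 to 77761 CPM in 4-day hearts. Their part in the changes of the ribosomal protein genes was not tested.

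Rps21, another small subunit protein, had 28.9, 28.9, 31.6 and 28.7 CPM in 11-day hearts, against 23.9, 21.8, 23.1 and 22.4 CPM in 4-day hearts. Here too the groups did not overlap. The log2 fold change was 0.36 ± 0.06 (adjusted p = 0.00276), and 0.23 with scaling by library size alone, which did not pass, nor did it with all groups in one fit. Rpl9 had 60.8, 64.7, 64.8 and 59.6 CPM in 11-day hearts, against 52.6, 55.4, 47.5 and 51.0 CPM in 4-day hearts, with a log2 fold change of 0.27 ± 0.07 (adjusted p = 0.0229). Rpl27 had 10.8, 12.2, 11.9 and 9.7 CPM in 11-day hearts, against 8.4, 9.6, 7.8 and 9.4 CPM in 4-day hearts, with a log2 fold change of 0.34 ± 0.09 (adjusted p = 0.0349). The groups did not overlap for either gene, for Rpl27 only narrowly. The call of Rpl9 was lost without 4-day A (0.28), 4-day C (0.23), 4-day D (0.26), 11-day B (0.26) or 11-day C (0.26), with scaling by library size alone (0.14) and with all groups in one fit. That of Rpl27 was lost without 4-day A (0.32), 4-day C (0.28), 11-day A (0.36), 11-day B (0.31) or 11-day C (0.31), with scaling by library size alone (0.21), with all groups in one fit, with effective lengths, and with the counts of its pseudogenes added (0.11, adjusted p = 0.397).

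Between 11 and 8 days, 2 of the 82 genes were higher and 0 lower at 11 days by edgeR, where 0.0596% of all genes were higher and 0.0782% lower. At an unadjusted p under 0.05, 46 were higher and 1 lower, where 5.9% of all genes were higher and 5.35% lower. DESeq2 called 13 higher and 0 lower, and limma voom 0 in either direction. The share of all genes called by DESeq2 is not given, so the 13 cannot be set against it. The median was 0.21, with 74 of 82 genes above 0, beside 0.00 for all genes. It was 0.25 without 8-day A, when 59 were higher and 0 lower at an unadjusted p under 0.05, where 5.86% of all genes were higher and 5.28% lower, and 1 passed as higher.

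Rps6, the small subunit protein that S6 kinases phosphorylate, had 96.5, 104.9, 104.6 and 102.0 CPM in 11-day hearts, against 80.1, 75.4 and 69.3 CPM in 8-day hearts. Rps27a, which is made as a fusion with ubiquitin, had 52.2, 51.8, 57.9 and 50.3 CPM in 11-day hearts, against 39.2, 39.7 and 37.3 CPM in 8-day hearts. For both genes every 11-day library lay above every 8-day library, 8-day A included. The log2 fold changes were 0.44 ± 0.08 for Rps6 and 0.45 ± 0.07 for Rps27a, each with an adjusted p of 0.0427. These calls were near the threshold. Without 8-day A, Rps6 passed (0.50, adjusted p = 0.0324) and Rps27a, at 0.46, did not. Without 8-day B, Rps27a passed (0.46) and Rps6, at 0.44, did not. With 8-day C or any of the 11-day libraries left out, neither passed, at log2 fold changes of 0.39 to 0.47. Both calls were also lost with scaling by library size alone (0.61 each), filterByExpr, effective lengths, all groups in one fit, limma voom and pseudogenes added by sequence, and that of Rps6 with pseudogenes added by name (0.34).

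**Figure D5:**
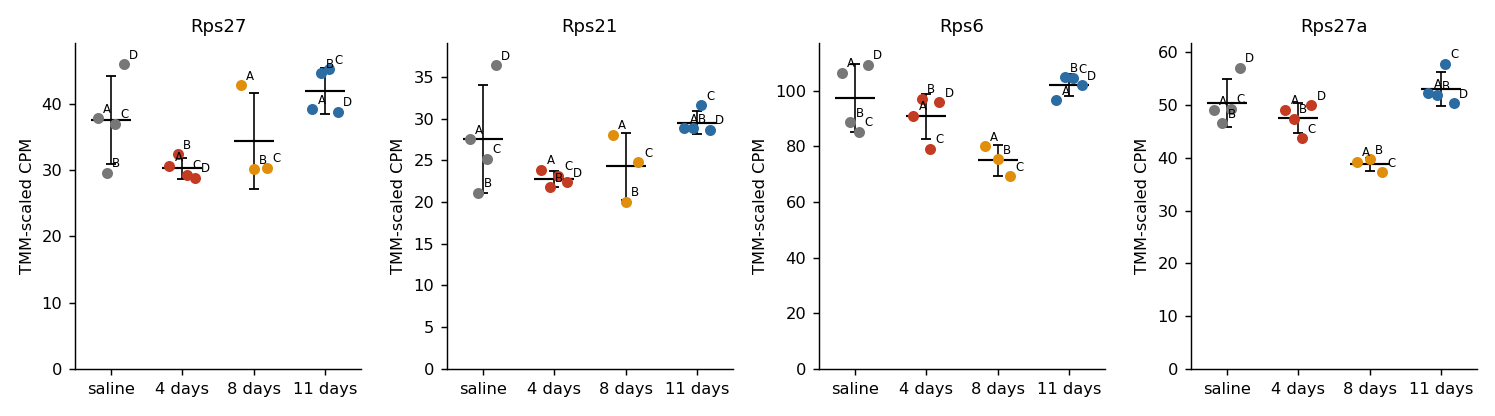
TMM-scaled CPM of Rps27, Rps21, Rps6 and Rps27a in each library (points, with letters) by group; lines are means and bars 1 SD. For Rps27 and Rps21 the 11-day hearts lie above the 4-day hearts, for Rps6 and Rps27a they lie above the 8-day hearts, and the saline hearts spread over much of the range.

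Rps24, a small subunit gene, is spliced in several ways at its 3′ end, and its transcripts differ by 2 very short exons. They are shown because the transcript shares turn on them, with 6 bases of the neighbouring exons in lower case.
Rps24 exon 5 of 7, chr14:24494052-24494069, plus strand: aaaaagAAATGAAATACCTAGCAGtgagtg
Rps24 exon 6 of 7, chr14:24495430-24495449, plus strand: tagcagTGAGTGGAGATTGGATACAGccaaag
The main transcript holds both exons, of 18 and 20 bases, and Rps24-202 only that of 20. By the share of transcripts that RSEM estimated, the main transcript took 50.5 ± 4.13% in saline hearts, 50.1 ± 1.91% at 4 days, 55.2 ± 2.67% at 8 days (53.7% without 8-day A) and 51.1 ± 1.69% at 11 days (SD, n = 4, 4, 3 and 4). Exact two-sided permutation tests of each time against saline gave p = 0.857, 0.171 and 0.8286, adjusted over the 3 tests 0.857, 0.514 and 0.857, where 4 against 4 libraries allow no less than 0.0286 and 3 against 4 no less than 0.0571. Rps24-202 took 37.6 to 41.9% on average in the 4 groups. A minor transcript, Rps24-211, which has neither exon, took 3.68 to 3.87% in saline hearts, 1.90 to 2.97% at 4 days, 0.48 to 3.09% at 8 days (2.50 to 3.09% without 8-day A) and 3.75 to 4.16% at 11 days. It was picked after its values were seen and was not tested.

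Other genes of translation were described from lists. Their counts stand beside 6.05% of all genes higher and 3.4% lower at 4 days against saline, and 1.8% and 1.95% at 11 days. Of 10 elongation factors, 1 was higher and 0 lower at 4 days against saline, with 0 lower at an unadjusted p under 0.05 and by DESeq2 and limma voom. It was Eef1a1, which brings charged tRNA to the ribosome, with 552, 351, 476 and 459 CPM in 4-day hearts, against 265, 305.5, 251 and 284.5 CPM in saline hearts. The log2 fold change was 0.74 ± 0.12, with an adjusted p of 0.0023. Set against 4 days, its log2 fold change at 11 days was -0.48 ± 0.11 (adjusted p = 0.0174), a call lost without 4-day A (-0.38), 11-day A (-0.45), 11-day B (-0.44) or 11-day D (-0.45). Per length, Eef1a1 over its muscle partner Eef1a2 was 1.27 to 2.03 in 4-day hearts, against 0.943 to 1.22 in saline hearts.

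Of 19 other genes whose messengers carry a TOP motif, 3 were higher and 1 lower at 4 days. Besides Eef1a1, these were Vim, an intermediate filament of fibroblasts, endothelium and immune cells (1.53 ± 0.18, adjusted p = 0.000396), Pabpc1, which binds the poly(A) tail (0.59 ± 0.16, adjusted p = 0.0293), and Hnrnpa1, a splicing factor, which was lower (-0.31 ± 0.09, adjusted p = 0.0446). The median of the 19 was 0.04. DESeq2 and limma voom called 0 of the 19 lower. The calls of Pabpc1 and Hnrnpa1 were lost in most fits with 1 library left out, and the fibroblast and macrophage markers given above moved in the same hearts.

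Among 61 genes of ribosome assembly, 1 was higher and 0 lower at 4 days. At an unadjusted p under 0.05, 3 were higher and 8 lower, where 3484 of all 26862 genes were higher and 2475 lower. DESeq2 called 0 in either direction, and limma voom 2 higher and 2 lower. Utp18, of the small subunit processome, was the one that passed (0.44 ± 0.11, adjusted p = 0.0234). Its call was lost without saline C (0.37), 4-day A (0.43) or 4-day D (0.44), and with effective lengths (0.32). At 11 days against saline 4 were higher and 0 lower, where 1.8% of all genes were higher and 1.95% lower. At an unadjusted p under 0.05, 11 were higher and 0 lower, where 8.25% of all genes were higher and 8.93% lower. DESeq2 and limma voom each called 3 higher and 0 lower. The 4 called by edgeR were led by Utp3 (0.41 ± 0.10, adjusted p = 0.035) and Wdr75 (0.34 ± 0.08, adjusted p = 0.04), with Pes1 (0.30 ± 0.08, adjusted p = 0.0472) and Tsr1 after them. Utp3, Wdr75 and Pes1 lost their calls in most fits with 1 library left out. Of the 61, 16 were higher and 0 lower at 11 days against 4 days, beside the 3.75% and 6.55% of all genes given above, again with 0 lower at an unadjusted p under 0.05 and by both tools. Their median was 0.15, against -0.01 for all genes. With scaling by library size alone 4 were higher and 0 lower, where 317 of all 26862 genes were higher and 2400 lower. The medians were then 0.02 for the 61 and -0.15 for all genes. The count of 16 therefore depends on the scaling, while the median of the 61 lay above that of all genes under both scalings.

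Among 15 RNA polymerase I genes tested, Polr1a, which encodes its largest subunit, was lower at 4 days (29.3, 32.1, 31.6 and 29.0 CPM, against 41.8, 37.5, 41.4 and 40.4 CPM in saline hearts). The log2 fold change was -0.40 ± 0.08, with an adjusted p of 0.00493. Of 36 initiation factors, Eif5 was lower at 4 days (-0.31 ± 0.08, adjusted p = 0.022) and Eif4a2, an RNA helicase, was higher at 11 days (0.29 ± 0.07, adjusted p = 0.0257), a call lost in most fits with 1 library left out. Of 21 regulators, Eif4ebp2, which holds back cap-dependent initiation, and Deptor, an inhibitor of mTOR, were lower at 4 days (-0.46 ± 0.11, adjusted p = 0.0221, and -0.32 ± 0.09, adjusted p = 0.0343). Of 15 assembly chaperones, 0 passed at 4 days by edgeR, 0 at an unadjusted p under 0.05 and 0 by DESeq2 and limma voom. Of 78 mitochondrial ribosomal protein genes, which serve the ribosome of the mitochondrion, 0 were higher and 4 lower at 4 days, Mrps28 (-0.50 ± 0.10, adjusted p = 0.00882) and Mrpl28 (-0.35 ± 0.10, adjusted p = 0.0372) among them, with 1 higher at an unadjusted p under 0.05 and 0 higher by both other tools. With scaling by library size alone the calls of all genes named here as lower at 4 days were lost: Polr1a at -0.19, Eif5 at -0.11, Eif4ebp2 at -0.25, Deptor at -0.12, Mrps28 at -0.28, Mrpl28 at -0.14 and Hnrnpa1 at -0.09. The calls of Eif5, Deptor and Mrpl28 were also lost in most fits with 1 library left out, and that of Eif4ebp2 without saline C (-0.34), 4-day A (-0.46) or 4-day D (-0.43).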

How the data were processed

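Total RNA libraries of 15 hearts were analysed; a replicate of the 8-day group that the study left out for quality is not analysed here. Per the submitters' notes and the study's methods, reads were trimmed with cutadapt 4.1, aligned to GRCm38.p6 with HISAT2 2.2.1 and quantified per library with RSEM 1.3.3. The authors deposited expected counts, FPKM and effective lengths per gene, and expected counts and percent of the gene's abundance per transcript. The annotation release behind these files, and the use of strand, were not given in the sources used here. GENCODE M21 gave gene types and transcripts.

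Expected counts were rounded to whole numbers, and the 26862 genes whose counts summed to 10 or more were tested between pairs of groups with edgeR 4.0.16 (R 4.3.3). CPM are counts per 1000000 after TMM scaling. Alternatives used other scalings, filters, effective lengths, one fit over all groups, robust dispersions, DESeq2 1.42.0, limma voom 3.58.1, pseudogene counts (blastn 2.17.0), a replicate block and left-out libraries. The fits were tested on simulated data. Depth differed between libraries, and counting error is lowest in the deepest.

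The genes and lists were chosen with earlier results of these data known. Named are genes past the threshold, the 3 highest and 3 lowest in FPKM, paralog pairs, stalk genes, and up to 3 genes of smallest p per list. Ribosomal protein genes outside the naming rule are not reported here. Rps24, the genes named for their pseudogenes or start windows, genes below the threshold that were named for their rank, Rps3a1, Tsr1 and the ratio of Eef1a1 to Eef1a2 were chosen after their values were seen.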

Additional observations from a re-analysis of the deposited data

Results flagged for a closer look

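Of 138 groups of 4 libraries among the genes named, 3 held a library far from the others, where chance gives about 1 in 20. Rps21 had 31.6 CPM in 11-day C and 28.7 to 28.9 CPM in the other 11-day libraries. Pes1 had 9.88 CPM in saline B and 8.77 to 8.87 CPM in the other saline libraries. Wdr75 had 6.75 CPM in 4-day C and 5.99 to 6.09 CPM in the other 4-day libraries.

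Other results differed between treatment times by edgeR's test of one time against another. At 11 days against 4 days, the log2 fold changes of ribosomal protein genes were -0.70 ± 0.12 for Rpl3 (SE, adjusted p = 0.00273), 0.53 ± 0.11 for Rpl3l (0.00832), 0.75 ± 0.15 for Rps3a3 (0.00663, where Pde4d around it had 0.26 ± 0.07, adjusted p = 0.0255), 0.46 ± 0.07 for Rps27 (0.00164), 0.36 ± 0.06 for Rps21 (0.00276), 0.27 ± 0.07 for Rpl9 (0.0229) and 0.34 ± 0.09 for Rpl27 (0.0349). At 11 days against 8 days they were 0.44 ± 0.08 for Rps6 and 0.45 ± 0.07 for Rps27a (both 0.0427).

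Among the other genes of translation, 11 days against 4 days gave -1.11 ± 0.13 for Vim (adjusted p = 0.000348), -0.71 ± 0.13 for Pabpc1 (0.00451) and -0.48 ± 0.11 for Eef1a1 (0.0174), all lower at 11 days. Higher at 11 days were Eif4a2 at 0.44 ± 0.07 (0.0020), Wdr75 at 0.34 ± 0.08 (0.0171), Utp3 at 0.33 ± 0.08 (0.0192), Eif5 at 0.27 ± 0.07 (0.0215) and Polr1a at 0.24 ± 0.06 (0.0279). Eif4a2 passed under all alternatives and without any one library. With scaling by library size alone the others lost their calls, Wdr75 at 0.20, Utp3 at 0.19, Eif5 at 0.13 and Polr1a at 0.11. Calls were also lost without 4-day A (Wdr75 at 0.32, Utp3 at 0.29, Eif5 at 0.26 and Polr1a at 0.22), without 4-day C (Eif5 at 0.25), without 4-day D (Utp3 at 0.30, Polr1a at 0.22), without 11-day A (Utp3 at 0.31, Polr1a at 0.24), without 11-day B (Wdr75 at 0.31, Eif5 and Polr1a at 0.25), without 11-day C (Eif5 at 0.24) and without 11-day D (Polr1a at 0.24).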

How the results depend on the processing

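Counts of the 82 genes called are small and moved with the settings, and no called gene changed its sign. Scaling by library size alone gave 3 higher and 0 lower at 4 days (median 0.16), 2 lower at 8 against 4 days (median -0.40), 3 higher and 2 lower at 11 against 4 days (median -0.04, a change of sign, as at 4 days), and 0 higher at 11 against 8 days (median 0.38). The median of all genes then moved to 0.21, -0.32, -0.15 and 0.17 in these 4 comparisons. At 4 days, 2 were lower with DESeq2 size factors, with the mitochondrial genome, CT010467.1 and Lars2 removed, with no low-count filter, with filterByExpr, with robust dispersions and with limma voom, and 3 with DESeq2. At 8 days, 2 were lower with no filter, robust dispersions or limma voom, 4 with all groups in one fit and 3 with DESeq2. At 11 days, limma voom called 0 higher. At 8 against 4 days, 3 were lower with no filter, 1 with robust dispersions or all groups in one fit and 2 with DESeq2. At 11 against 4 days, 3 were higher with all groups in one fit and 10 with DESeq2, and 2 were lower with no filter or with pseudogene counts added by name or, an alternative chosen after seeing the data, by sequence. At 11 against 8 days, 10 were higher with no filter, 6 with robust dispersions, 13 with DESeq2, 1 with pseudogenes added by name, and 0 with filterByExpr, effective lengths, all groups in one fit, limma voom or pseudogenes added by sequence. The log2 ratio of the summed level at 4 days was 0.18 as a share of all counts and 0.17 in summed FPKM. The causes were not tested.

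Libraries with the same letter did not clearly deviate together (r of -0.28 to 0.27), and no pairing was used in the main test. With 3 or 4 pairs per comparison, these values cannot decide whether the letters link samples. The replicate block gave 1 gene lower at 8 against 4 days, 2 lower at 11 against 4 days and 5 higher at 11 against 8 days.

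With 1 library left out, 1 gene was higher and 1 to 10 lower at 4 days (median -0.11 to 0.01), 0 higher and 0 to 3 lower at 8 days (-0.23 to -0.11), 0 to 2 higher and 0 lower at 11 days (-0.01 to 0.12), 0 higher and 0 to 3 lower at 8 against 4 days (-0.16 to -0.08), 4 to 9 higher and 1 to 2 lower at 11 against 4 days (0.07 to 0.12), and 0 to 1 higher and 0 lower at 11 against 8 days (0.17 to 0.25). Without 8-day A the summed level at 8 days stayed at a log2 ratio of -0.14 and the main Rps24 transcript was 3.17 percentage points above saline. Over single named genes in the alternatives that keep every library, 62 values gained and 74 lost their call, and 3374 kept their side of the threshold.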
